A study of Homo sapiens with 9 samples.

Results

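SLC7A11, CHAC1, CTH and CBS, 4 genes that bring in cystine, break down glutathione or make cysteine from methionine, were followed through the differentiation of NCCIT cells and through exposure to ethanol. They are 4 of the 18418 genes for which a transcript cluster (the set of probes that Affymetrix summarises into 1 value) was used. The genes were named by symbol, and the cluster of each was chosen by its mean over the 9 arrays, the brightest being kept; each symbol had 1 cluster, so this choice decided nothing. They were proposed as a group with earlier results of these arrays known, among them the ethanol and differentiation effects of SLC7A11 and CHAC1. The ethanol, differentiation and day effects of all 4, and their ethanol by day interactions, are therefore a description. No p-value is given for them, and their calls are counted beside those of all genes but support nothing. Clusters 8102800 (SLC7A11), 7982868 (CHAC1) and 7902290 (CTH) carried 1 symbol each. Cluster 8070632 was annotated to both CBS and LOC102724560, a near-identical copy of CBS that is also called CBSL. CBS had no cluster of its own here, so its values are those of the shared cluster and cannot be assigned to either gene. All 4 clusters passed the filter on dim genes, a highest value above 7.71 on the log2 scale, the median of all values, which 12255 of the 18418 genes passed.

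Cells obtain cysteine in 2 ways. SLC7A11, also called xCT, is the light chain of the antiporter that takes in cystine in exchange for glutamate, and cystine is reduced to cysteine inside the cell. Transsulfuration makes cysteine from homocysteine: CBS (cystathionine beta-synthase) joins homocysteine to serine, and CTH (cystathionine gamma-lyase) splits the resulting cystathionine. Cysteine is often the limiting amino acid for glutathione, the main thiol antioxidant, and CHAC1 degrades glutathione in the cytosol. SLC7A11 and CHAC1 are known targets of ATF4, the transcription factor of the amino acid and endoplasmic reticulum stress response, and SLC7A11 is also a target of NFE2L2 (NRF2).

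NCCIT, a human embryonal carcinoma line with pluripotent features, makes embryoid bodies (suspended clumps of cells that start to differentiate) in dishes it does not stick to. The series held 9 single-colour Affymetrix arrays, 1 per condition: at day 7 and at day 21, embryoid bodies with 50 mM ethanol and FA, with 50 mM ethanol, with FA, and untreated, and 1 array of undifferentiated cells. All came from this 1 line grown with 10% fetal bovine serum, and neither the meaning nor the dose of FA is given in the sources used here. The protocol describes daily medium changes and 7 days in non-adherent dishes for all samples, whereas the titles name 7 or 21 days. No condition was replicated, and nothing in the labels says whether the arrays came from separate cultures. Of 13 marker symbols fixed for embryonal carcinoma and pluripotent cells, 10 had a cluster of their own. All 10 lay above the median of all values on both untreated embryoid body arrays and on the undifferentiated array. POU5F1 and NANOG had no such cluster and were not analysed here. The median of those 10 was 11.89 in undifferentiated cells, 11.64 in untreated embryoid bodies at day 7 and 10.11 in those at day 21, while the median of 6 neural markers was 8.12, 7.79 and 9.18 in the same order. The part of these marker changes in the results below was not tested, and in bulk samples fewer cells of a type and less RNA per cell cannot be told apart. Among day 7 arrays the one given ethanol alone was least like the rest, with a mean correlation of 0.990 where the remaining 3 had 0.994 to 0.995.

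The stretch before the start site of CHAC1 is printed because it holds a known kind of ATF4 site, and that of CTH because CTH moved with CHAC1 and holds none in these letters. Both are the 250 bases before the RefSeq start site in build GRCh38.p14, plus strand, chr15:40953221-40953470 for CHAC1 and chr1:70411018-70411267 for CTH, and capitals mark a match to TGATGNAA, the core of the C/EBP-ATF response element, read on either strand.
CHAC1: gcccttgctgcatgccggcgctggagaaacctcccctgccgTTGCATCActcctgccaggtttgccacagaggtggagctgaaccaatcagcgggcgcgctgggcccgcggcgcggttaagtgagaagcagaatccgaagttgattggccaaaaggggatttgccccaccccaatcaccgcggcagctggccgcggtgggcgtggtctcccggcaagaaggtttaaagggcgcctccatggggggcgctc
CTH: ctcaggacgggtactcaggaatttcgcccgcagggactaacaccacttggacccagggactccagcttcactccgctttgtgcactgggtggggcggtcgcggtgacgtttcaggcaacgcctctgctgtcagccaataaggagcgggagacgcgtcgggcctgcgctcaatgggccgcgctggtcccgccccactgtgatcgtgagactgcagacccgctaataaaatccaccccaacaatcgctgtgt

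The CHAC1 window held 1 match to the element, TTGCATCA on the minus strand, which starts at base -209 from the start site. Windows of 300 bases (250 before to 50 after a start site) held this motif in 3.62% of the 35116 promoters in the RefSeq table. None of the 3 CBS windows held it, and 1 of the 4 windows of LOC102724560 did. The CCAAT box, CCAAT on either strand, matched 3 times for CHAC1, 1 time for CTH, and for CBS 2 times in 1 window and 1 time in another. It was held by 34.6% of all windows. No SLC7A11 promoter was among the sequences used here, so SLC7A11 was not searched for any of these motifs. The antioxidant response element core, TGACNNNGC on either strand, matched in 1 CBS window and in none of CHAC1 or CTH (13.3% of all windows), and the cyclic AMP element TGACGTCA matched in none of the 3 genes (1.85% of all windows). None of these matches in the CHAC1, CTH and CBS windows overlapped a match to another of these motifs. A match here is a run of letters and not a measured binding site.

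SLC7A11, the cystine importer gene, fell with differentiation and was higher with ethanol at both days. The single day 7 array given ethanol alone lay at the level of undifferentiated cells, and the one given ethanol and FA differed from it by -0.20. At day 7 SLC7A11 stood at 11.64 with ethanol and 11.38 with ethanol and FA, against 10.35 with FA and 10.29 untreated (log2 expression on each array). At day 21 it stood at 9.79 with ethanol and 9.59 with ethanol and FA, against 9.12 with FA and 9.13 untreated. Undifferentiated cells had 11.58. At each day both ethanol arrays lay above both arrays without ethanol, and all 4 arrays of day 21 lay below all 4 of day 7. The ethanol difference averaged 0.88 ± 0.13 over the 4 matched pairs (SE of the fit; 1.84-fold), from 0.47 at day 21 with FA to 1.34 at day 7 without FA, where it was 2.54-fold. Against undifferentiated cells the untreated array was lower by 1.29 at day 7 (-1.29) and by 2.45 at day 21 (-2.45). In the order of levels, the day 7 ethanol array and the undifferentiated array differed by 0.06, less than the moderated residual SD of the fit (0.18), as did the FA and untreated arrays of each day. The other neighbours in the order differed by more than it.

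CHAC1, the glutathione-degrading enzyme gene, had the same order of conditions as SLC7A11 at day 21 and, apart from the FA and untreated arrays, at day 7, but no ethanol array came back to the undifferentiated level. At day 7 its log2 level was 9.96 with ethanol and 9.60 with ethanol and FA, against 8.88 with FA and 8.92 untreated. At day 21 it was 8.33 with ethanol and 8.13 with ethanol and FA, against 7.69 with FA and 7.78 untreated. Undifferentiated cells, with 10.55, lay above every embryoid body array. The ethanol difference averaged 0.68 ± 0.09 (SE of the fit; 1.61-fold) and ran from 0.43 at day 21 with FA to 1.03 at day 7 without FA. The untreated arrays differed from undifferentiated cells by -1.63 at day 7 and by -2.77 at day 21. The residual SD was 0.13, and the FA and untreated arrays of each day were the only neighbours in the order of levels closer than that.

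CTH, the gene for the second transsulfuration enzyme, was also lower in embryoid bodies and higher with ethanol, with ethanol differences that were much alike in the 4 pairs. At day 7 its log2 level was 10.19 with ethanol and 10.07 with ethanol and FA, against 9.74 with FA and 9.78 untreated. At day 21 it was 9.26 with ethanol and 9.19 with ethanol and FA, against 8.71 with FA and 8.86 untreated. Undifferentiated cells had 10.85, above every embryoid body array, and at each day the ethanol arrays did not overlap those without ethanol. The ethanol difference averaged 0.40 ± 0.048 (SE of the fit; 1.32-fold), from 0.33 to 0.48 in the 4 pairs. The untreated arrays differed from undifferentiated cells by -1.08 at day 7 and -1.99 at day 21. In the order of levels only the untreated and FA arrays of day 7 were closer (0.034) than the residual SD of 0.069.

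The cluster shared by CBS, the gene for the first transsulfuration enzyme, and LOC102724560 stayed near the undifferentiated level at day 7 and was lower at day 21, with no ethanol call. At day 7 its log2 level was 10.93 with ethanol and 10.95 with ethanol and FA, against 11.09 with FA and 11.06 untreated. At day 21 it was 10.08 with ethanol and 9.79 with ethanol and FA, against 9.90 with FA and 9.80 untreated. Undifferentiated cells had 11.19, and all 5 highest levels, those of day 7 and of undifferentiated cells, followed each other by less than the residual SD of 0.11. The ethanol difference averaged -0.02 ± 0.079 (SE of the fit), with a 95% interval from -0.21 to 0.16. Ethanol arrays lay below their partners in 3 of 4 pairs and above them in the day 21 pair without FA (0.28). The untreated arrays differed from undifferentiated cells by -0.13 at day 7 and -1.39 at day 21.

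**Figure D1:**
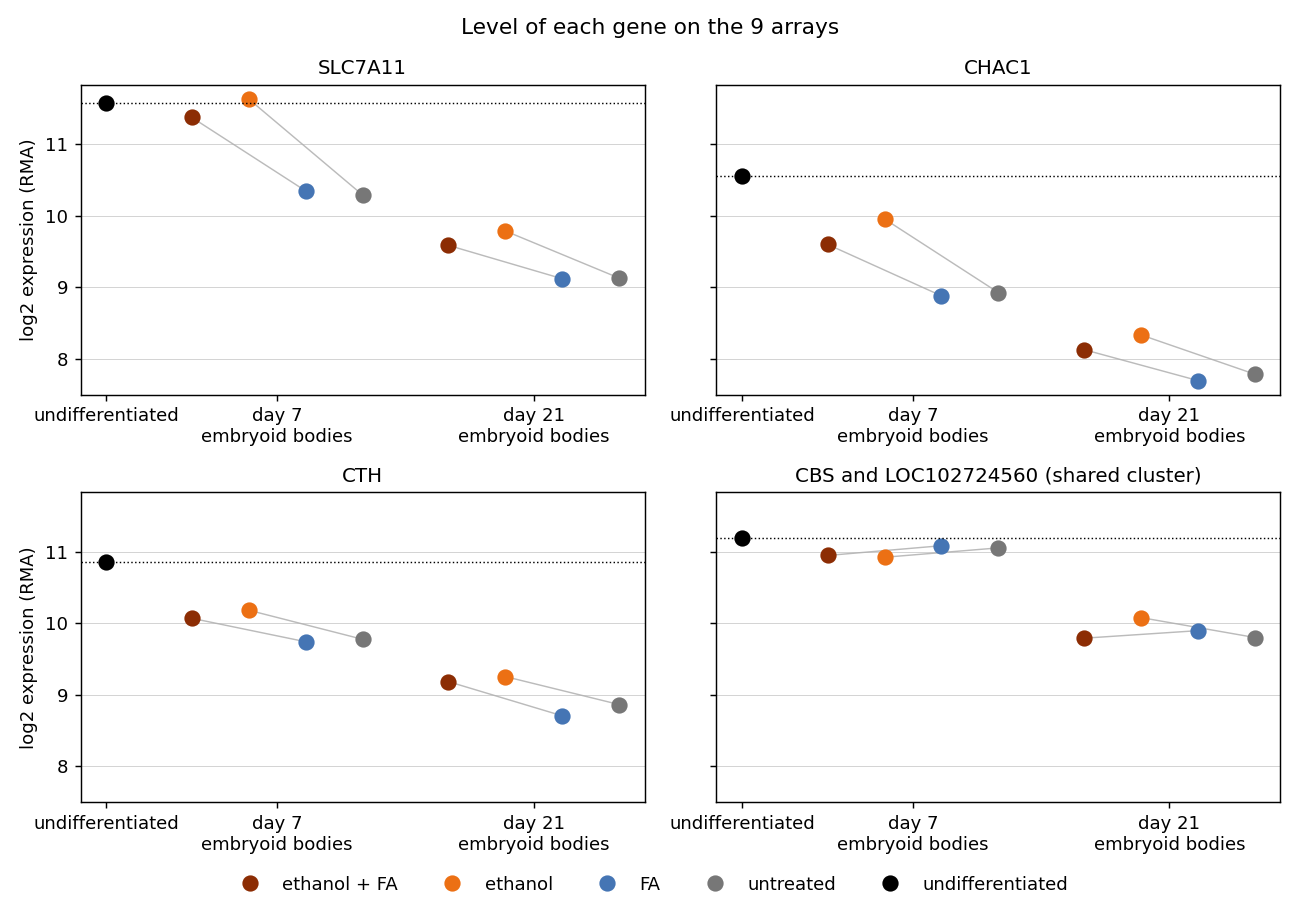
Log2 expression (RMA) of the 4 genes on each of the 9 arrays, with grey lines joining arrays that share day and FA and a dotted line at the undifferentiated level. SLC7A11 at day 7 with ethanol alone (11.64) lies at the undifferentiated level (11.58) and with ethanol and FA (11.38) below it. The shared CBS cluster is lower at day 21 than at day 7.

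By the rule applied to all genes (a Benjamini-Hochberg adjusted p under 0.05 in limma) SLC7A11, CHAC1 and CTH counted as higher with ethanol and the shared CBS cluster did not, 3 of 4, where 0.563% of all genes tested were called higher and 0.122% lower. Nothing is read from that count, since these results were known when the genes were proposed. The SLC7A11 effect ranked 3 and the CHAC1 effect 12 from the highest of 12255 genes tested, and CTH ranked 94. Each of the 3 calls was lost without the ethanol array, the ethanol and FA array, the FA array or the untreated array of day 21, and without the FA or the untreated array of day 7, and that of SLC7A11 also without the ethanol and FA array of day 7. With each of those arrays left out, SLC7A11 had effects from 0.76 to 0.98, CHAC1 from 0.60 to 0.75 and CTH from 0.38 to 0.43, so the sizes moved little. Most of these losses were shared by all genes. With all arrays 84 genes were called for ethanol. Without the ethanol or the ethanol and FA array of day 21, or the FA or the untreated array of day 7, 0 were. Without the FA and the untreated array of day 21 there were 3 and 2. Without the ethanol and FA array and the ethanol array of day 7 there were 129 and 212. Without the day 7 array given ethanol alone SLC7A11 was at 0.76, CHAC1 at 0.59 and CTH at 0.41, and all 3 were called.

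Medians of marker lists also stood apart between ethanol arrays and the others in some cases, with no test made. The median of the 10 pluripotent markers at day 21 was 10.24 with ethanol and 10.19 with ethanol and FA, against 9.86 with FA and 10.11 untreated, without overlap. At day 7 the same median overlapped between the groups, with 11.57 and 11.74 in the ethanol arrays and 11.68 and 11.64 in those without it. The median of 6 neural markers at day 7 was 8.26 with ethanol and 8.24 with ethanol and FA, against 7.92 with FA and 7.79 untreated. At day 21 the neural median was 9.38 and 9.39 in the ethanol arrays, against 9.20 with FA and 9.18 untreated. The part of either list in the ethanol differences of the 4 genes was not tested.

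The ethanol responses of the 4 genes were set against each other within the 4 matched pairs. CTH responded more than the shared CBS cluster in 4 of 4 pairs, by a mean of 0.43 ± 0.21 on the log2 scale (SD, n = 4 pairs). SLC7A11 exceeded the CBS cluster by 0.90 ± 0.51 and CHAC1 exceeded it by 0.71 ± 0.39, also in 4 of 4 pairs. SLC7A11 exceeded CHAC1 by 0.19 ± 0.14 in 4 of 4 pairs. SLC7A11 and CHAC1 each exceeded CTH in 3 of 4 pairs, by 0.47 ± 0.43 and 0.28 ± 0.29. An exact two-sided sign-flip permutation test over 4 pairs cannot give a p below 0.125, so none of the 6 differences could reach the 0.05 threshold in this design, and they are a description.

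The ethanol difference was smaller at day 21 than at day 7 for SLC7A11 and CHAC1, though neither interaction passed. For SLC7A11 it averaged 0.56 over the pairs of day 21 (1.48-fold) and 1.19 over those of day 7 (2.28-fold), with and without FA averaged. The ethanol by day interaction, day 21 minus day 7, was -0.62 ± 0.13 (SE of the fit). The same value passed in the model that held all 3 interactions, with 1 residual degree of freedom. That model also called 972 genes for ethanol, against 84 in the main fit. How many genes passed for this interaction in that model was not counted. For CHAC1 the averages were 0.49 at day 21 and 0.88 at day 7, and the interaction was -0.38 ± 0.13. The CHAC1 arrays of day 21 without ethanol, at 7.69 with FA and 7.78 untreated, lay near the filter line of 7.71. Differences of dim genes are compressed, and the part of this in the smaller day 21 difference was not tested. For CTH the averages were 0.44 at day 21 and 0.37 at day 7, with an interaction of 0.07 ± 0.094. For the CBS cluster they were 0.09 at day 21 and -0.13 at day 7, with 0.22 ± 0.15. With this interaction added alone 0.00816% of all genes tested passed for it, which is 1 gene and none of the 4.

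FA changed none of the 4 genes past the threshold, and 0% of all genes tested passed for FA in limma. At an unadjusted p under 0.05 there were 121 genes (0.987%), with none of the 4 among them. That share is low for such a threshold and the residual holds interactions, so FA effects could be missed. With ethanol present the FA differences of SLC7A11 were -0.26 at day 7 and -0.20 at day 21, whereas without ethanol they were 0.06 and -0.01. CHAC1 differed by -0.36 and -0.21 with FA in the presence of ethanol, and by -0.04 and -0.09 without ethanol. CTH differed by -0.11 and -0.07 with ethanol present, and by -0.03 and -0.16 without it. The CBS cluster differed by 0.03 and -0.29 with ethanol present, and by 0.03 and 0.10 without it. The average FA effect was -0.10 ± 0.13 for SLC7A11 (95% interval -0.40 to 0.19), -0.17 ± 0.092 for CHAC1 (-0.39 to 0.04), -0.09 ± 0.048 for CTH (-0.21 to 0.02) and -0.03 ± 0.079 for the CBS cluster (-0.22 to 0.15). CTH and CHAC1 were lower with FA in 4 of 4 pairs. The ethanol by FA interaction was -0.25 ± 0.25 for SLC7A11 and -0.21 ± 0.18 for CHAC1. It was 0.004 ± 0.11 for CTH and -0.20 ± 0.16 for the CBS cluster, with limma's adjusted p = 0.994 or above for each of the 4 genes. For it 0% of genes passed (100, or 0.816%, at an unadjusted p under 0.05). The FA by day interaction passed for 0% of genes as well (1496, or 12.2%, at an unadjusted p under 0.05), and the values of the 4 genes lay between -0.12 and 0.05.

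**Figure D2:**
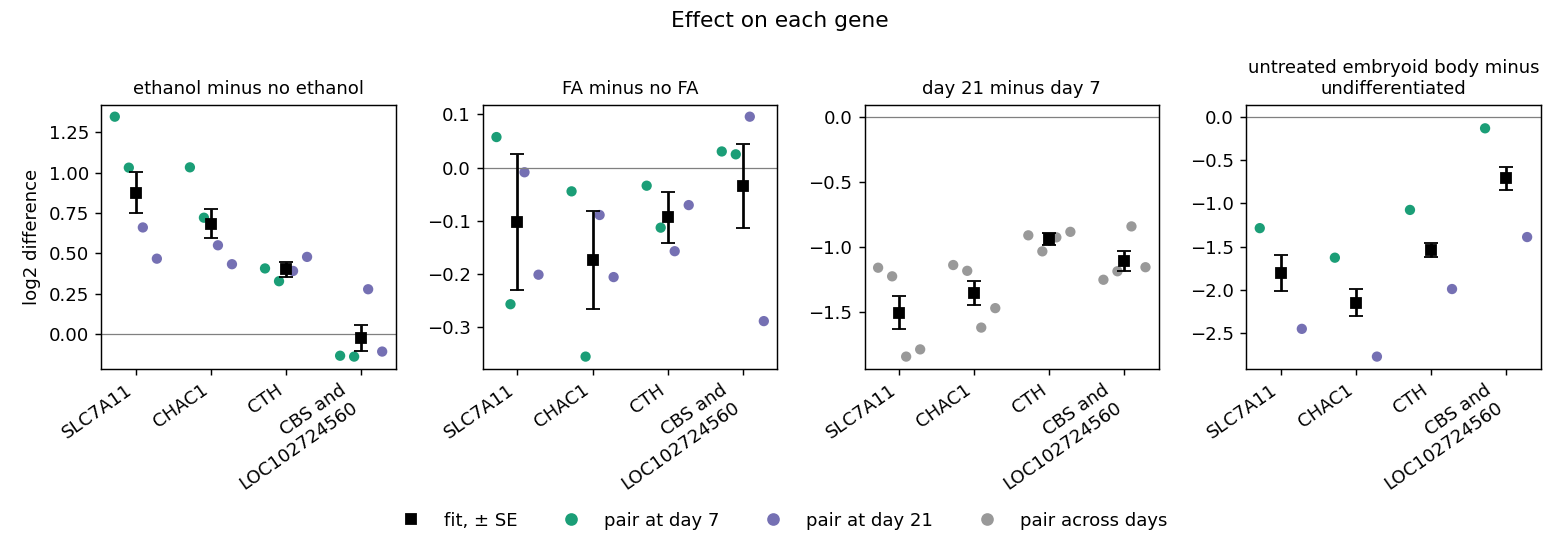
Log2 differences for ethanol, FA, day and differentiation (each panel has its own scale), with squares for the fitted effect ± SE and circles for single pairs of arrays. The ethanol panel shows SLC7A11 and CHAC1 pairs lower at day 21 than at day 7, CTH pairs between 0.33 and 0.48, and CBS cluster pairs around 0.

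All 4 genes fell at day 21 relative to day 7, in every matched pair. The day effect was -1.51 ± 0.13 for SLC7A11 and -1.36 ± 0.09 for CHAC1 (SE of the fit). It was -1.11 ± 0.079 for the CBS cluster and -0.94 ± 0.048 for CTH. All 4 counted as called lower at day 21, where 22.6% of all genes tested were called lower and 26.3% higher. Nothing is read from that count, since the genes were proposed with earlier results of these arrays known. The split over all genes was 3224 higher and 2772 lower, and median centring of the arrays turned it into 3841 higher and 2107 lower; all 4 genes kept their calls. For SLC7A11 the pairs with ethanol fell by more (-1.85 and -1.79) than those without it (-1.16 and -1.23), the same contrast as the interaction given above.

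Relative to undifferentiated cells all 4 genes were lower, and counted as called, in the untreated embryoid body level of the fit averaged over both days, where 17.2% of all genes tested were called lower and 11% higher. The effect was -2.14 ± 0.15 for CHAC1, -1.80 ± 0.21 for SLC7A11, -1.53 ± 0.080 for CTH and -0.71 ± 0.13 for the CBS cluster (SE of the fit). CHAC1 ranked 2, SLC7A11 9, CTH 20 and the CBS cluster 315 from the lowest of 12255 genes. For the CBS cluster the average hides the days, because the untreated day 7 array was -0.13 from undifferentiated cells, near the residual SD, and that of day 21 was -1.39. Differentiation effects, those of the lists below included, rest on a single undifferentiated array, which the fit assumes to vary like the embryoid body arrays and which cannot be left out.

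Genes whose products work beside these 4 were read from lists drawn up with earlier results of these data known. The median ethanol effect over all genes tested was 0.02. Among 4 tested genes of the list named cystine transport partners 2 rose with ethanol and the median was 0.26, where 0.563% of all genes tested were called higher. Because the lists were drawn up with earlier results known, nothing is read from this count or median, nor from those of the lists below. SLC3A2, the heavy chain that pairs with SLC7A11, was at 0.32 ± 0.053 (limma's adjusted p = 0.0493). SLC1A4, a neutral amino acid transporter gene and so a loose fit to the list name, was at 0.65 ± 0.096 (limma's adjusted p = 0.0386). SLC3A2 lay between 0.18 and 0.41 in the 4 pairs and SLC1A4 between 0.32 and 0.91. SLC3A2 missed the threshold with no filter (adjusted p = 0.0691) and after median centring (0.0565), and like SLC7A11 both lost the call when single arrays were left out (adjusted p up to 0.213 for SLC3A2 without the untreated day 7 array and up to 0.168 for SLC1A4 without the FA array of day 7). No gene of the other 5 lists passed for ethanol. Glutathione synthesis genes were at 0.21 ± 0.083 (GCLC, the catalytic subunit of the rate-limiting ligase), 0.05 ± 0.071 (GCLM, its modifier subunit) and 0.13 ± 0.055 (GSS, glutathione synthetase), and CHAC2, the paralogue of CHAC1, was at 0.03 ± 0.091. The 2 transcription factor genes ATF4 and NFE2L2 were at 0.06 ± 0.050 (limma's adjusted p = 0.590) and 0.23 ± 0.098 (limma's adjusted p = 0.275); ATF4 is known to be controlled largely at translation, which these arrays do not measure. The list medians for ethanol were 0.05 for 11 glutathione synthesis and breakdown genes, 0.00 for 9 methionine cycle genes, 0.09 for 12 genes of cysteine breakdown and sulfide, 0.02 for 14 genes of glutathione use and ferroptosis and 0.06 for 17 regulators.

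Among genes of glutathione synthesis, breakdown and use more were called lower than higher in untreated embryoid bodies relative to undifferentiated cells. Over all genes tested 17.2% were called lower and 11% higher, with a median of -0.05. Of 11 glutathione synthesis and breakdown genes 5 fell and 0 rose (median -0.45). These were the peptidase gene CNDP2 (-0.90), CHAC2 (-0.88), GSS (-0.68), GCLM (-0.56) and the aminopeptidase gene LAP3 (-0.45). GCLC, at 0.17 ± 0.14, did not pass. Of 14 genes of glutathione use and ferroptosis 11 fell and 1 rose (median -0.43). The glutathione peroxidase genes GPX1 (-0.87), GPX8 (-0.55) and GPX4 (-0.47) fell, with GPX1 at -0.45 when its clusters were averaged, as did the glutathione transferase genes GSTO1 (-0.49) and GSTP1 (-0.34) and the glutathione reductase gene GSR (-0.26). GCH1 (-0.64), ACSL4 (-0.44), DHODH (-0.42), HMOX1 (-0.33) and LPCAT3 (-0.27), which act in cofactor, lipid, pyrimidine or haem metabolism, fell too. The ferritin light chain gene FTL rose (0.56); it has near-identical copies with which its probes can share signal.

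The supply and disposal routes of cysteine also held genes lower in untreated embryoid bodies, beside the same 17.2% lower and 11% higher over all genes tested, and shares such as 5 of 17 and 1 of 4 lie not far from it. Of 9 methionine cycle genes 3 fell and 1 rose (median -0.13): AHCY (-0.62), which makes homocysteine, PEMT (-0.41) and MTRR (-0.28) fell, and MTR (0.44), which turns homocysteine back into methionine, rose. Of 12 genes of cysteine breakdown and sulfide 5 fell and 1 rose (median -0.25). The transaminase genes GOT1 (-0.67) and GOT2 (-0.65), the sulfurtransferase gene TST (-0.67), the cysteine desulfurase gene NFS1 (-0.32) and the thiol oxidase gene ADO (-0.26) fell. CSAD (0.60), which acts in taurine synthesis, rose. Of 17 regulators 5 fell and 0 rose (median -0.10), namely SESN2 (-1.44), CEBPB (-0.82), the ATF4 target TRIB3 (-0.79), ATF4 itself (-0.68) and CEBPG (-0.41). With its clusters averaged in place of the brightest ATF4 was at -0.23 and lost the call (limma's adjusted p = 0.0865). Of 4 cystine transport partners SLC3A2 (-0.36) fell. Limma's adjusted p for the list genes named for differentiation lay between 7.9e-04 and 0.0476. With 1 array left out ADO, GSR, LPCAT3 and MTRR lost the call in 6 of 8 refits, and 9 others (ACSL4, CEBPG, DHODH, FTL, GCH1, GPX8, HMOX1, NFS1 and SLC3A2) lost it in 1 or 2.

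At day 21 relative to day 7 the same lists held calls in both directions, beside 26.3% higher, 22.6% lower and a median of -0.01 over all genes tested, and most of the counts lie near those shares. Of 4 cystine transport partners SLC1A4 (0.66) and the lysosomal cystine exporter gene CTNS (0.30) rose and SLC3A2 (-0.44) fell. Of 11 glutathione synthesis and breakdown genes 2 rose, GCLC (0.28) and GCLM (0.25), and 4 fell, with GSS (-0.32) and the gamma-glutamyltransferase gene GGT6 (-0.25) the largest. Of 9 methionine cycle genes 3 rose, MAT2B (0.42), MAT2A (0.39) and MTR (0.33), and PEMT (-0.37) fell. Of 12 genes of cysteine breakdown and sulfide SUOX (0.42) and CSAD (0.28) rose, and KYAT1 (-0.62) and GOT1 (-0.35) fell. Of 14 genes of glutathione use and ferroptosis 5 fell and 0 rose, with GCH1 (-0.39), DHODH (-0.38), the transferrin receptor gene TFRC (-0.36) and ACSL4 (-0.23) the largest. Of 17 regulators 4 rose and 5 fell, among them the amino acid sensing kinase gene EIF2AK4 (1.00), NFE2L2 (0.95), its inhibitor KEAP1 (0.56) and CEBPB (-0.59). ATF4 was at 0.07 ± 0.050 and did not pass. Limma's adjusted p for the genes named for day lay between 7.9e-06 and 0.0304. With 1 array left out ACSL4, GCLC and GGT6 lost the day call in 5 of 9 refits and GCLM in 4 of 9.

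**Figure D3:**
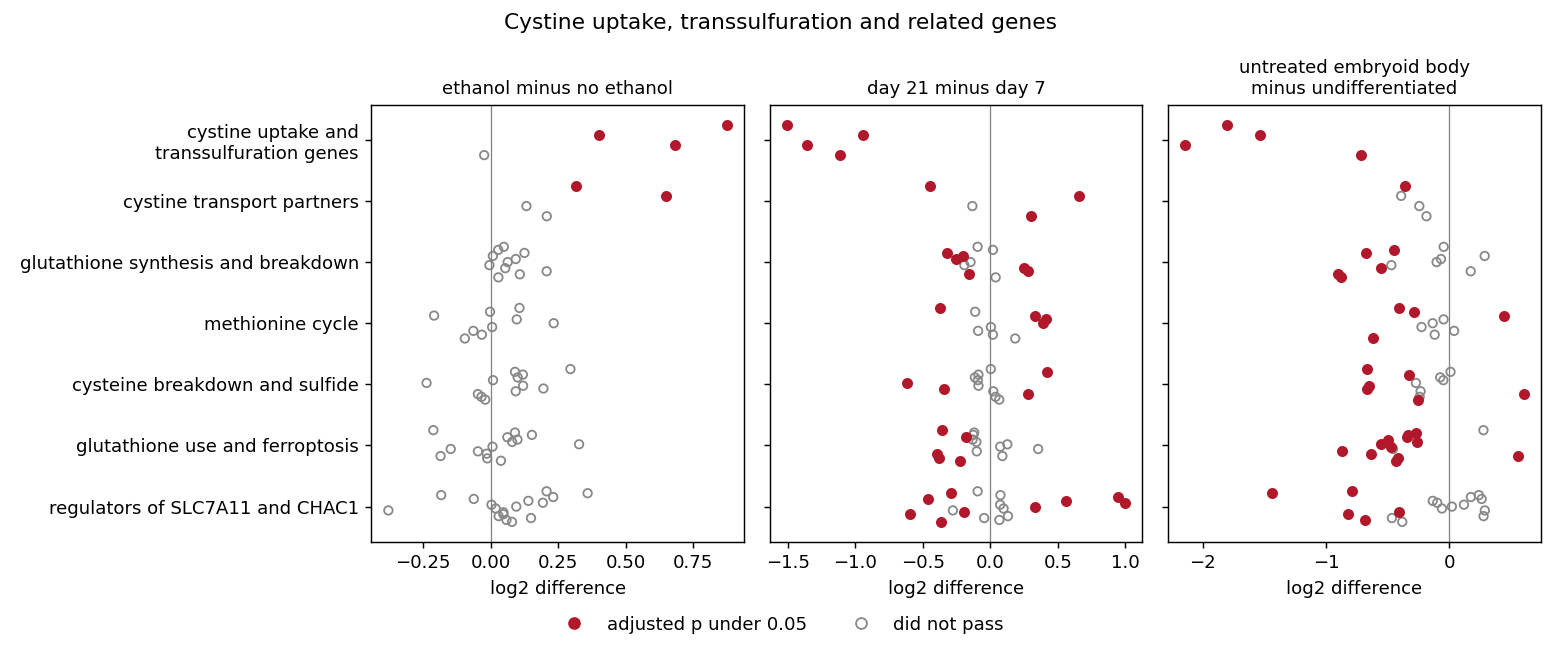
Fitted log2 differences of the 4 genes (top row) and of every tested gene of the 6 lists, for ethanol, day and differentiation; filled points passed limma's adjusted threshold of 0.05. In the ethanol panel the only filled points beside the top row are SLC3A2 and SLC1A4, both in the list named cystine transport partners, where SLC1A4 is a neutral amino acid transporter gene.

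**Figure D4:**
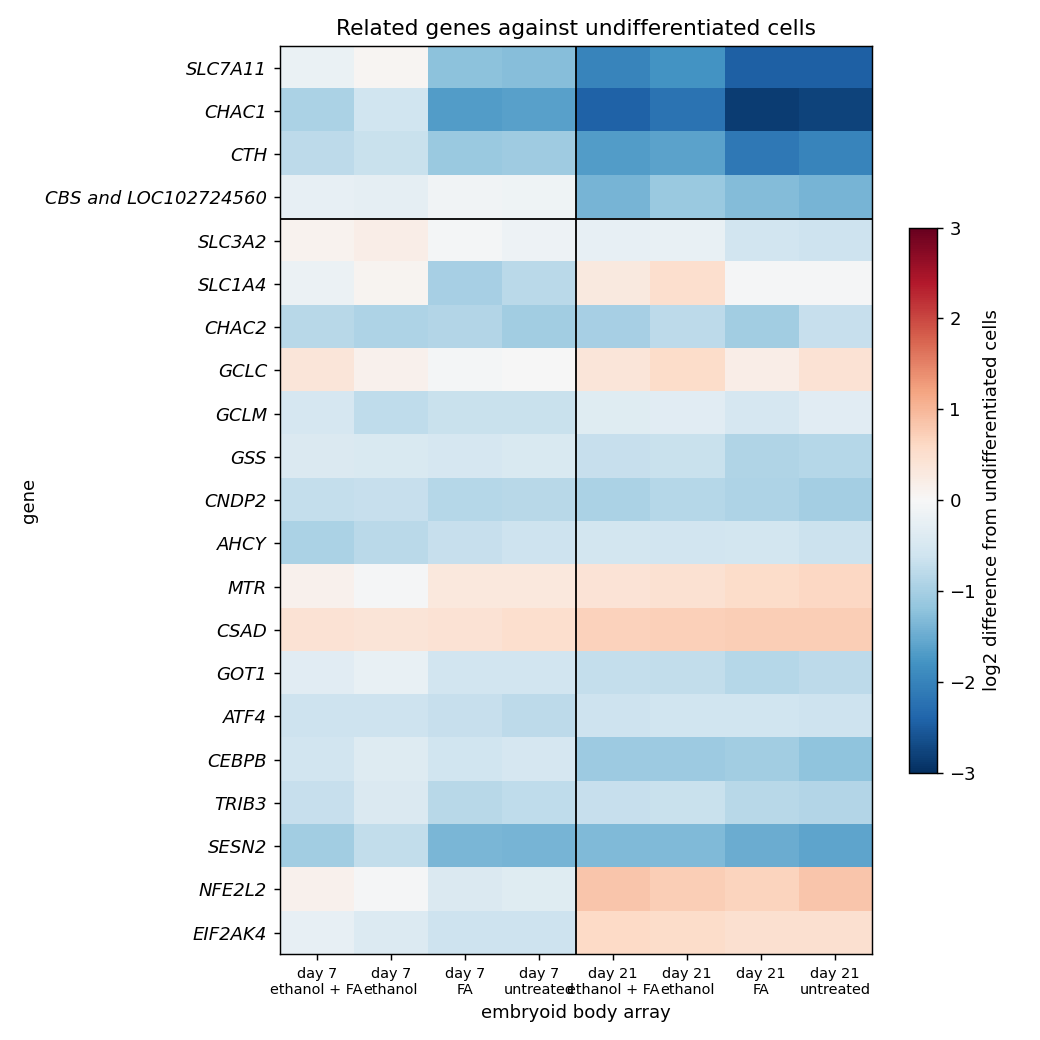
Log2 difference of each embryoid body array from the undifferentiated array, for the 4 genes (above the line) and related genes, with ethanol arrays left of those without ethanol at each day. SLC7A11, CHAC1 and CTH are paler with ethanol at both days, while the brightest ATF4 cluster is lower than in undifferentiated cells on all 8 arrays (-0.77 to -0.60); with its clusters averaged the ATF4 differentiation effect was -0.23.

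The genes whose pattern over the 9 arrays was most like each of the 4 were ranked by Pearson's r, given as a description because the arrays share their conditions and few levels drive r. CHAC1 was closest to the methionyl-tRNA synthetase gene MARS1 (r = 0.997), the asparagine synthetase gene ASNS (0.992), RTKN (0.992), the stress ligand gene ULBP1 (0.991) and GATAD2A (0.990). CTH was closest to NUP43 (0.991), PYM1 (0.991), ASNS (0.990), GALNT14 (0.989) and CHAC1 (0.989). ASNS is thus among the closest genes of both CHAC1 and CTH. SLC7A11 was closest to TRIM26 (0.997), RPP25 (0.997), PPP2R2B (0.996), COA7 (0.994) and TTC19 (0.991), and it had r = 0.978 with CHAC1 and 0.950 with CTH. The CBS cluster was closest to PODXL (0.994), ZSCAN10 (0.994), USP44 (0.992), PTPRU (0.990) and TICRR (0.989), and its r with the other 3 genes was 0.847 to 0.880. The most opposed patterns were those of ING4, MTR and FMNL2 for SLC7A11 (r from -0.992 to -0.986) and of IGFBP2, KAT6A and CALCOCO1 for CHAC1 (-0.984 to -0.983). For CTH they were HP1BP3, ZNF266 and WASF3 (-0.984 to -0.977), and for the CBS cluster ATP9A, HOXB2 and ZIC1 (-0.992 to -0.990). Over all genes tested, 365 had r above 0.9 with SLC7A11, 541 with CHAC1, 663 with CTH and 819 with the CBS cluster, so high values are common in this design.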

How the data were processed

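Expression was measured in 9 samples with single-colour Affymetrix arrays. The deposited values were log2 expression per transcript cluster. Per the submitters' processing notes the authors ran RMA, with its background correction and quantile normalization, and used Affymetrix Expression Console (version 1.3.1). The log base was inferred from the values (2.49 to 14.3). Because RMA gives arrays a common distribution, a shift shared by most transcripts would be hidden, and differences of dim genes are compressed. The sources used here name no genome build for the array annotation.

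Of 33297 clusters, 19460 carried 1 symbol, 1754 several and 12083 none; genes were named from clusters with 1 symbol (brightest of several), and the cluster of CBS and LOC102724560 was added. Tests were run on genes whose highest value exceeded the median of all values. No arrays held identical values.

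One additive model per gene (ethanol, FA, day, and a term for the undifferentiated array) was fitted to all 9 arrays in limma (version 3.58.1) and statmod 1.5.0 in R 4.3.3, leaving 4 residual degrees of freedom, to which the variance prior added 3.94. With no replicates the residual, interactions included, takes the place of replicate error, and p-values cover only this spread, which could be technical. P-values were adjusted by Benjamini-Hochberg over 12255 genes, with a threshold of 0.05. Interactions were added one at a time. Fits were tested on simulated data. Exact permutation tests used Python 3.11.15 and SciPy 1.17.1. The members and lists were chosen with earlier results of these data known.

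Named genes were the 4 members; every list gene called for ethanol, FA or differentiation; the 4 largest called for day in each list; SLC3A2, CHAC2, GCLC, GCLM, GSS, ATF4 and NFE2L2; and, for each member, the 5 genes most and the 3 least like it by r. Alternatives were the filter, clusters averaged, centring, a trended robust prior, embryoid bodies alone, all interactions, and leaving out each array. The number of arrays limits precision.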

Additional observations from a re-analysis of the deposited data

How the results depend on the processing

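The 4 effects of each of the 4 genes kept their direction and their side of the threshold in all 104 combinations of gene, effect and setting. The settings were another filter, averaged clusters, median centring, a trended robust prior, embryoid bodies alone or all 3 interactions. Some of these could hardly differ. Each gene had 1 cluster, so averaging left its values unchanged, and embryoid bodies alone gave the same ethanol, FA and day fits. Leaving out 1 array at a time, effects of SLC7A11 ran from 0.76 to 0.98 for ethanol, -0.22 to 0.014 for FA, -1.62 to -1.39 for day and -1.89 to -1.63 for differentiation. Those of CHAC1 ran from 0.59 to 0.75, -0.25 to -0.08, -1.44 to -1.26 and -2.19 to -2.02 in the same order. Those of CTH ran from 0.38 to 0.43, -0.12 to -0.07, -0.96 to -0.92 and -1.55 to -1.52, and those of the CBS cluster from -0.115 to 0.0201, -0.0946 to 0.0568, -1.20 to -1.05 and -0.76 to -0.62. All day and differentiation calls held; the ethanol call was lost in 7 of 9 leave-outs for SLC7A11 and in 6 of 9 for CHAC1 and CTH. The sign changes were in the uncalled ethanol effect of the CBS cluster and the uncalled FA effects of SLC7A11 and the CBS cluster.

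Taken from single untreated arrays with no test, differentiation was -1.29 at day 7 and -2.45 at day 21 for SLC7A11, -1.63 and -2.77 for CHAC1, -1.08 and -1.99 for CTH, and -0.13 and -1.39 for the CBS cluster. The SLC7A11 ethanol by day interaction (-0.62) did not pass in the main fit or in the other 3 refits, and passed with all 3 interactions in 1 model. The cause was not tested, and how many genes passed for this interaction in that model was not counted. The number of genes called for ethanol was 84, against 54 with no filter, 57 with centring, 148 with the trended robust prior, 972 with all 3 interactions and 0 to 212 with 1 array left out; for differentiation it was 3450, against 2108 (without the untreated day 7 array) to 4826 (without the day 7 ethanol array) with 1 array left out. Of the list genes named, 28 of 33 for differentiation and 22 of 23 for day kept their call in every refit with other settings, and 20 and 19 kept it in every leave-out. No paired analysis was possible because the labels carry no replicate numbers to use as a block; the matched pairs of the text share day and FA or ethanol, not a number.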
